A study of Mus musculus with 55 samples.

Results

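The liver expresses a compact set of genes that carry growth factor signals into hepatocytes and damp them again. The 10 genes described here are 4 ligands (Hgf, Areg, Hbegf and Tgfa), the receptors Egfr and Met, 3 feedback inhibitors (Dusp6, Spry2 and Errfi1) and the transcription factor Myc. They were chosen by symbol, for their function, and all 10 were among the 34490 gene symbols that both sequencing batches of the study counted. As background, hepatocyte growth factor, made mainly by stellate and other non-parenchymal cells, binds the receptor tyrosine kinase MET, whereas transforming growth factor alpha, heparin-binding EGF-like growth factor and amphiregulin bind EGFR. Both receptors activate the RAS-ERK cascade of MAP kinases, which is turned down by the ERK phosphatase DUSP6, by the adaptor SPRY2 and by ERRFI1, which binds and inhibits the EGFR kinase. These receptors are known for their part in liver regeneration, and MYC is a growth regulator that many mitogens induce.

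Whole-liver RNA was sequenced from adult mice that carried floxed alleles of Rnf43 and Znrf3, which encode membrane ubiquitin ligases that lower WNT receptor levels. In R&Zdel mice the exons encoding the RING domains had been deleted in hepatocytes, either by a liver-directed adeno-associated virus with Cre under the TBG promoter or by tamoxifen in mice with CreERT2 driven by the albumin promoter. R&Zflox mice kept both genes and received a virus without Cre or the vehicle. Livers were taken without damage at 1, 3 and 7 months after deletion (1M, 3M and 7M), 4, 50 and 170 days after the last of repeated CCl4 injections, a hepatotoxin, and 7 or 21 days after partial hepatectomy (PHx). There were 4 R&Zflox and 4 R&Zdel libraries at 1M, 5 and 2 at 3M, 5 and 5 at 7M, 2 and 2 at 4 days, 1 and 2 at 50 days and 2 and 2 at 170 days after CCl4, and 3 and 3 at each time after PHx. All CCl4 libraries were male and in batch 1, with 7 undamaged libraries of that batch. The labels give tamoxifen as the induction for all of these, R&Zflox included. All PHx libraries were virus-induced and in batch 2. In batch 2 the 1M and 3M libraries were virus-induced and the 7M libraries tamoxifen-induced, so induction cannot be told apart from month there. At 3M induction cannot be told apart from batch, with 1 R&Zdel library in each batch.

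Total counts ran from 11721687 to 32168223 per library, with a median of 22488266. Levels are given as CPM, the count scaled to a common library total, and differences as log2 fold changes from edgeR fits with TMM scaling, each with its standard error. Counts cover whole transcripts, so the deletion of some exons need not lower them, and the labels could not be checked by the loss of the targeted genes. Znrf3 in R&Zdel against R&Zflox libraries ran from 11.9 to 26.7 against 4.63 to 9.99 CPM in batch 1, and from 41.3 to 166 against 9.05 to 35.3 CPM in batch 2, without overlap. Rnf43 ran from 25.98 to 68.4 CPM in R&Zdel and from 3.39 to 58.7 CPM in R&Zflox libraries of batch 2, so that the ranges overlapped, and they overlapped in batch 1 too, at 19.0 to 37.9 and 5.12 to 19.2 CPM. The 5 hepatocyte markers found summed to between 61525 and 69099 CPM in the 3 undamaged R&Zdel livers of batch 1 and to between 96356 and 110309 CPM in the 4 undamaged R&Zflox livers, without overlap. In whole liver, fewer cells of a type and less RNA per cell cannot be told apart.

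On mm10, Hgf lies at chr5:16553495-16619439, Areg at chr5:91139599-91148432, Tgfa at chr6:86195038-86275744, Egfr at chr11:16752203-16913907 and Met at chr6:17463349-17573980. Dusp6 lies at chr10:99263231-99267489, Spry2 at chr14:105891947-105896819, Errfi1 at chr4:150853796-150868889 and Myc at chr15:61985341-61990361. Counts were summed over all exons of each gene.

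The promoters of the receptor Egfr and of the feedback gene Spry2 are shown for their values 4 days after CCl4. The calls of Spry2 are no support for a change, for the reason given below. Each window is the 250 bases before the RefSeq transcript start on GRCm38.p6, the build called mm10, read 5′ to 3′ on the gene's strand. Capitals mark a GC box, here as the reverse complement of GGGCGG.
Egfr, chr11:16751953-16752202, plus strand: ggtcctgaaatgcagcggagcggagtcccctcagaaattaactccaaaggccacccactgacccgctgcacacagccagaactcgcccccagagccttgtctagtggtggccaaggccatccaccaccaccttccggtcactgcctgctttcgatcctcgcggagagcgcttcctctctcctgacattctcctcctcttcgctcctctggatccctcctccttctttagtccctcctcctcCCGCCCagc
Spry2, chr14:105896820-105897069, minus strand: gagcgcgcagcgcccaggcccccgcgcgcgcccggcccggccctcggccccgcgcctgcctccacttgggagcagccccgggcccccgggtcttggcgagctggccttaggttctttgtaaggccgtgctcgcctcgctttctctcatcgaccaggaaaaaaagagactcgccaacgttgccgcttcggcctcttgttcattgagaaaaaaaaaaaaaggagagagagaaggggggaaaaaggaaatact
Both windows are GC-rich, at 60.8% for Egfr and 62.4% for Spry2, against a median of 52.4% over all promoter windows. Of the 10 genes, 8 had an entry in the promoter table, with 10 windows, and both strands were searched. A GC box (GGGCGG) was found in 5 of the 10 windows and in 33.0% of the 32536 windows of the table. A TATA box (TATAAA) was found in 2 windows and in 12.3% of all, an AP-1 site (TGANTCA) in 1 and in 6.73%, and an E-box (CACGTG) in 1 and in 6.04%. A TCF/LEF site (CTTTGAA) was found in 0 of the 10 windows and in 4.47% of all. A match is a description of these letters and not of binding.

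To set the genes side by side, levels were divided by exon length, which gives CPM per kb. In undamaged R&Zflox livers Errfi1 was the highest, with a median of 164 CPM per kb in batch 1 and 188 in batch 2. Egfr followed with 25.2 and 41.2 CPM per kb. Next came Met in batch 1 and Dusp6 in batch 2, and Met had medians of 6.50 and 6.27 CPM per kb. The ranges of Errfi1 and Egfr did not overlap in either batch, and those of Egfr and Met overlapped in batch 1 through 1 library, replicate 5 at 7M, with 6.53 CPM per kb of Egfr. Dusp6 had medians of 4.40 and 8.75, with a range that overlapped that of Met in both batches, and Tgfa of 2.04 and 2.95 CPM per kb. Myc had 4.10 CPM per kb in batch 1 and 0.658 in batch 2, with ranges from 1.08 to 11.3 and from 0 to 5.11. Hgf, Spry2 and Hbegf lay below 1 CPM per kb by their medians in both batches, with overlapping ranges. Areg was at 0 by its median in both.

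The low genes set limits on what could be seen. Areg had no count in any of the 30 libraries of batch 2, where a count of 0 allows up to between 0.0946 and 0.259 CPM (3 counts per library, counting error only). Of these 30 libraries, 13 were at 0 for Hbegf, 10 for Spry2, 8 for Myc and 2 for Hgf, while none of the 18 libraries of batch 1 was at 0 for Hbegf, Hgf or Myc. Values of Hgf at 1M show the spread within a group. They were 1.78, 15.3, 0.257 and 2.38 CPM in R&Zflox and 4.86, 1.84, 5.92 and 7.26 CPM in R&Zdel livers. Standard errors of genotype differences in batch 2 therefore reached 2.08 for Hgf and 3.36 for Hbegf after PHx, so that changes of a few fold in these genes were not detectable there.

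Without damage, none of the growth factor genes passed the test between R&Zdel and R&Zflox livers. The test was edgeR's quasi-likelihood test, and calls needed both a p under 0.1 after Benjamini-Hochberg adjustment and a change of more than 1 log2 unit, up or down. By this rule 0 of the 9 genes tested were called at any of the 3 times, where 0.436% (1M), 0.226% (3M) and 0.451% (7M) of all genes tested were. Areg did not pass the filter on low counts in any comparison. Median log2 fold changes over the 9 genes were 0.00, 0.20 and -0.14, against 0.01, -0.09 and -0.02 over all genes. At an unadjusted p under 0.05 there was 1 of the 9 genes at 1M, against 7.74% of all genes, and there were 0 at 3M (6.43%) and 7M (8.89%). This was Egfr, with a log2 fold change of -0.92 ± 0.44 (edgeR, adjusted p = 0.63). For Met the estimates were -0.41 ± 0.42 (1M), -0.78 ± 0.55 (3M) and 0.35 ± 0.38 (7M), and for Dusp6, in the same order, 0.48 ± 0.49, 1.07 ± 0.60 and -0.05 ± 0.46. Each of these lay less than 2 standard errors from 0.

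At 1M the Egfr values lay apart by sex. In females Egfr was 328 and 266 CPM in R&Zflox and 57.1 and 118 CPM in R&Zdel livers, and in males 361 and 326 CPM in R&Zflox and 450 and 361 CPM in R&Zdel livers. Both R&Zdel females were below every other library of that time. A comparison within each sex, chosen after these values were seen, gave a log2 fold change of -1.98 ± 0.33 in females (edgeR, adjusted p = 0.032) and 0.10 ± 0.32 in males (adjusted p = 1). Egfr was the only 1 of the 8 genes tested to be called in females, against 0.85% of all genes, and 0 of 8 were called in males, against 0.363%. The call in females was lost without R&Zdel replicate 1 (log2 fold change -1.55, adjusted p = 0.14) and without R&Zflox replicate 3 (-1.81, adjusted p = 0.16). The difference between the sexes was 2.08 ± 0.45, males minus females, and did not pass the adjustment over all genes (adjusted p = 0.41). It passed with DESeq2 (adjusted p = 0.00083). None of the genes was called for the difference between the sexes by edgeR, against 0.00886% of all genes.

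Other female libraries were few. Egfr was 140 CPM in the R&Zdel female at 21 days after PHx, against 232 and 475 CPM in the males of that group, and in batch 1 it was 42.0 CPM in the R&Zflox female at 7M and 119 CPM in the R&Zdel female at 3M. Over the 20 libraries at 1M and after PHx, Egfr was higher in males by 1.36 ± 0.35 on the log2 scale (edgeR, adjusted p = 0.085), and was the only 1 of the 9 genes called for sex, against 0.994% of all genes. The values of this sex difference ran from 1.07 to 1.603 when each library was left out in turn, and the call was lost in 13 of those 20 fits (highest edgeR adjusted p = 0.38) and in the fit on total counts without TMM (1.24, adjusted p = 0.12). It held without R&Zflox replicate 1, 2 or 3 at 1M, R&Zflox replicate 2 or 3 at 7 days after PHx, and R&Zflox or R&Zdel replicate 1 at 21 days after PHx. Over the undamaged livers of both batches Egfr was at 1.201 ± 0.38 (adjusted p = 0.26) and 0 genes were called for sex, against 0.918% of all genes, although leaving out either batch's R&Zdel library at 3M gave a call (1.54, adjusted p from 0.025 to 0.026). In batch 1, which has 2 females, Hbegf was lower in males by the same test (-1.61 ± 0.42, adjusted p = 0.099), 1 of 9 genes called against 1.59% of all genes, and kept this call in 3 of 18 fits, those without the R&Zflox library at 50 days or either at 170 days after CCl4. Egfr was at 1.38 ± 0.48 there (adjusted p = 0.26).

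**Figure D1:**
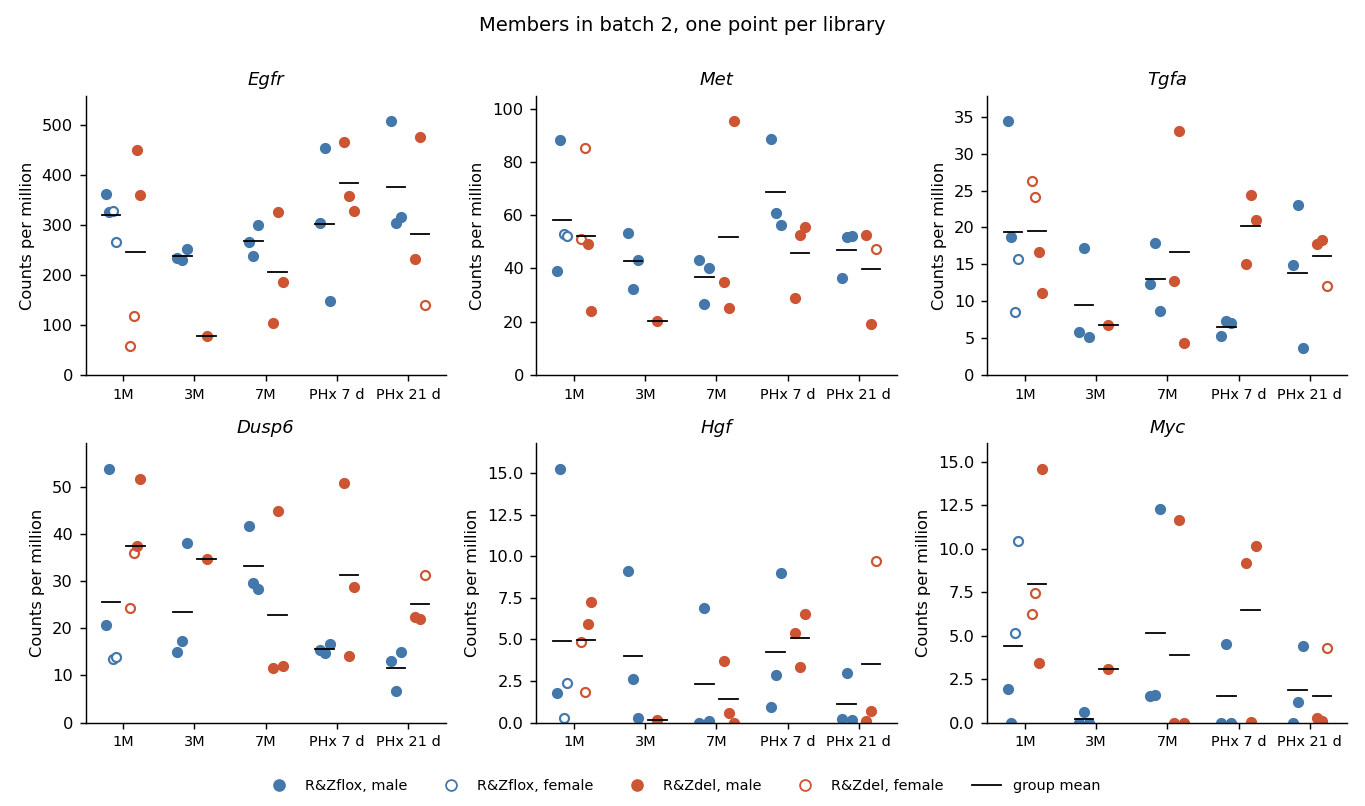
Levels of 6 of the genes in batch 2 in CPM (vertical axes, linear), by time without damage (1M, 3M, 7M) and after PHx (7 and 21 days). Each point is 1 library, blue for R&Zflox and red for R&Zdel, filled for males and open for females, and bars are group means; the 2 R&Zdel females at 1M have Egfr levels of 57.1 and 118 CPM.

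At 4 days after CCl4 the receptor Egfr was lower and the ligand Hbegf higher in R&Zdel than in R&Zflox livers. Egfr was 84.8 and 43.2 CPM in R&Zdel and 206 and 176 CPM in R&Zflox livers. Hbegf was 5.90 and 11.2 CPM in R&Zdel and 2.33 and 2.16 CPM in R&Zflox livers. Neither pair of groups overlapped. Egfr fell by 2.06 ± 0.39 on the log2 scale (edgeR quasi-likelihood test, adjusted p = 0.010) and Hbegf rose by 1.40 ± 0.47 (adjusted p = 0.069). These 2 of the 8 genes tested were called, against 15.2% of all genes, so the share among the growth factor genes was not far from the background. The median log2 fold change over the 8 genes was 0.57, against 0.06 over all genes. Leaving out 1 library at a time kept the call for Egfr, with values from -2.73 to -1.601. The call for Hbegf was lost without R&Zdel replicate 2 (0.96, adjusted p = 0.34), without R&Zflox replicate 1 (1.47, adjusted p = 0.23) and without R&Zflox replicate 2 (1.31, adjusted p = 0.24). With the libraries of conflicting labels placed by their characteristics, both calls were lost, at -2.06 for Egfr (edgeR, adjusted p = 0.12) and 1.39 for Hbegf (adjusted p = 0.10), and 0 of the 8 genes were called. The 3 libraries so placed in this comparison had Znrf3 values in the range of the other genotype of batch 1, at 6.97 and 7.38 CPM in those placed as R&Zdel at 50 and 170 days and 18.6 CPM in the library placed as R&Zflox at 50 days. Of the other 2, placed among undamaged livers, the library placed as R&Zflox at 3M had 33.7 CPM, above every grouped library of batch 1, and the library placed as R&Zdel at 7M had 33.0 CPM.

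The other EGFR ligand Tgfa and the ERK phosphatase Dusp6 had higher values in both R&Zdel livers without passing the test. Tgfa was 17.9 and 22.9 CPM in R&Zdel and 7.62 and 10.1 CPM in R&Zflox livers, with a log2 fold change of 0.70 ± 0.38 (edgeR, adjusted p = 0.23). Dusp6 was 19.1 and 31.6 CPM in R&Zdel and 8.96 and 8.60 CPM in R&Zflox livers, with 1.01 ± 0.44 (adjusted p = 0.13). TMM scaling factors were 1.27 and 1.42 for the R&Zdel and 0.930 and 0.955 for the R&Zflox livers, so that fitted differences are smaller than those in CPM for higher genes. On total counts without TMM the median over all genes moved from 0.06 to 0.57, and 4 of the 8 genes were called, with Tgfa at 1.21 (adjusted p = 0.054) and Dusp6 at 1.54 (adjusted p = 0.046), against 26.1% of all genes. Egfr was then at -1.57 (adjusted p = 0.013), lower under both scalings.

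Spry2 and Areg were below the filter of this comparison, which required a CPM above 1 in 6 of the 11 CCl4 libraries. Spry2 was 4.46 and 4.88 CPM in R&Zdel and 0.584 and 0.696 CPM in R&Zflox livers at 4 days. Areg was 0.492 and 0.649 CPM in R&Zdel livers and at 0 in both R&Zflox livers. With no filter on low counts Spry2 rose by 2.27 (edgeR, adjusted p = 0.0033) and Areg was called as higher (adjusted p = 0.025). The call of Areg rested on 13 and 19 counts in the R&Zdel livers. Met, the receptor of HGF, was 39.2 and 35.5 CPM in R&Zdel and 29.9 and 27.6 CPM in R&Zflox livers, with a log2 fold change of -0.12 ± 0.22. Errfi1 was 430 and 301 CPM against 405 and 410 CPM (-0.65 ± 0.47), and Myc was 9.87 and 11.0 CPM against 4.43 and 6.47 CPM (0.44 ± 0.56). Hgf was 1.70 and 5.12 CPM in R&Zdel and 1.24 and 1.53 CPM in R&Zflox livers (0.77 ± 0.77).

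Markers of some other cells also differed between these livers, in both directions. Cholangiocyte markers (Krt19, Krt7, Epcam, Sox9, Spp1 and Cftr) summed to 3633 and 6474 CPM in the R&Zdel livers at 4 days, to 89.1 and 161 CPM in the R&Zflox livers, and to between 60.0 and 152 CPM in undamaged livers of batch 1. All 5 of these markers tested were called as higher in R&Zdel livers, Spp1 made up 3404 and 6075 CPM of the sums, and Cftr was at 0 in both R&Zflox livers. Markers of dividing cells summed to 196 and 225 CPM in R&Zdel against 45.1 and 87.1 CPM in R&Zflox livers, with 3 of 5 called as higher, and markers of stellate cells and fibroblasts to 297 and 825 CPM against 116 and 175 CPM, with 3 of 9. Hepatocyte markers summed to 92561 and 75631 CPM in R&Zdel and 93671 and 97445 CPM in R&Zflox livers, with 0 of 5 called. Endothelial markers had lower sums in R&Zdel livers, from 99.0 to 210 CPM against 224 to 229 CPM. So had red blood cell markers, from 231 to 239 CPM against 269 to 306 CPM. The sums for Kupffer cells and macrophages, lymphocytes and neutrophils overlapped between the genotypes. The part of these cells in the levels of Egfr, Hbegf, Spry2 and the others was not tested.

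**Figure D2:**
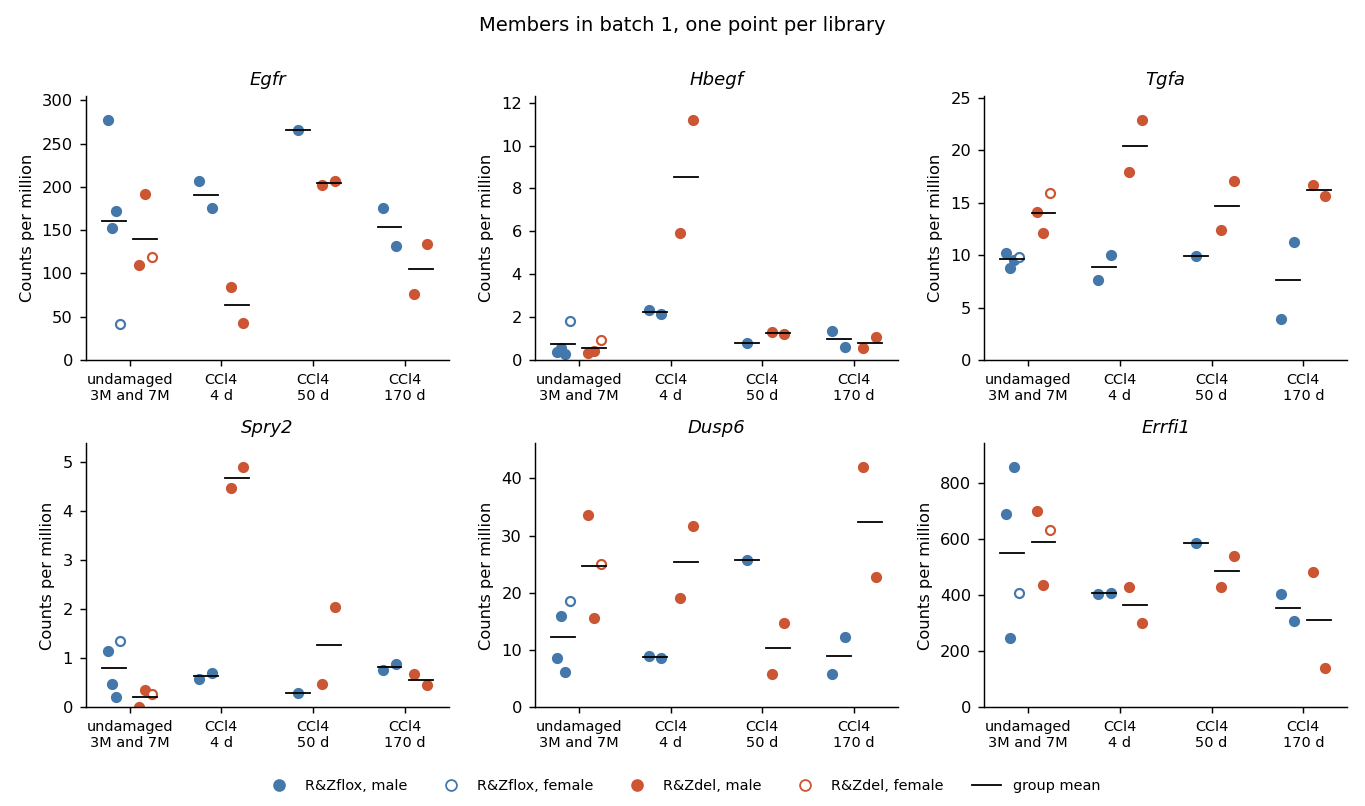
Levels of the genes in batch 1 in CPM (vertical axes, each linear and on its own scale), without damage and 4, 50 and 170 days after CCl4. Each point is 1 library, blue for R&Zflox and red for R&Zdel, and bars are group means; at 4 days the R&Zdel livers have Egfr levels of 84.8 and 43.2 CPM and the R&Zflox livers 206 and 176 CPM.

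Each genotype was then compared with its own undamaged livers of batch 1, pooled over 3M and 7M, with sex as a term. In R&Zflox livers at 4 days only Hbegf was called among the 9 genes tested, against 5.37% of all genes. It was 2.33 and 2.16 CPM, against 0.299 to 1.81 CPM in the 4 undamaged R&Zflox livers, and rose by 2.25 ± 0.44 (edgeR, adjusted p = 0.013). The groups did not overlap, and the highest undamaged value came from the only female among them. One sentence of the study's methods gives control littermates corn oil alone, whereas the labels mark these libraries as damaged. Markers of dividing cells, at 45.1 and 87.1 CPM in them, lay above the 3.8 to 11.1 CPM of undamaged livers of batch 1. With the libraries of conflicting labels placed by their characteristics, and no term for sex, Hbegf was at 1.49 (edgeR, adjusted p = 0.20).

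In R&Zdel livers at 4 days, 5 of the 9 genes were called, against 31.3% of all genes. Spry2 rose by 4.18 ± 0.84 (edgeR, adjusted p = 0.0017) and Hbegf by 4.05 ± 0.49 (adjusted p = 0.00011), from 0 to 0.352 CPM and 0.314 to 0.937 CPM in the 3 undamaged R&Zdel livers. Without the R&Zdel livers after CCl4 Spry2 would not have passed the filter on low counts, so that its call is no support for a rise. Egfr fell by 2.21 ± 0.53 (adjusted p = 0.0048), from 110 to 192 CPM without damage. These 3 kept their calls without each library in turn. Hgf rose by 1.65 ± 0.72 (adjusted p = 0.078) and Errfi1 fell by 1.42 ± 0.55 (adjusted p = 0.051), and these calls rested on single libraries. Without R&Zdel replicate 2 at 4 days Hgf was at 0.79 (adjusted p = 0.52) and Errfi1 at -1.10 (adjusted p = 0.27), and without R&Zdel replicate 1 at 7M they were at 1.38 (adjusted p = 0.22) and -1.25 (adjusted p = 0.16). Hgf was also lost without R&Zdel replicate 2 at 7M (1.92, adjusted p = 0.10) and without replicate 4 at 3M (1.69, adjusted p = 0.12). On total counts without TMM Errfi1 was at -0.77 (adjusted p = 0.23). With the libraries of conflicting labels placed, and no term for sex, Egfr was at -1.40 (adjusted p = 0.20), and of the 5 calls those of Spry2 and Hbegf were left.

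The test of the difference between the genotypes in their change at 4 days called 3 of the 9 genes, at an adjusted p under 0.1, against 25.7% of all genes. Spry2 differed by 4.23 ± 1.11 (edgeR, adjusted p = 0.024), Egfr by -2.26 ± 0.65 (adjusted p = 0.034) and Hbegf by 1.80 ± 0.64 (adjusted p = 0.070), each as the genotype difference at 4 days minus that without damage. Spry2 passed the filter on low counts only with the R&Zdel livers after CCl4, so that its call is no support for a difference. Spry2 kept its call without each library in turn (edgeR, adjusted p from 0.013 to 0.09998). Egfr lost it without R&Zdel replicate 2 at 4 days (-1.78, adjusted p = 0.16) and without R&Zflox replicate 1 at 4 days (-2.12, adjusted p = 0.11). Hbegf lost it in 6 of 11 such fits: without R&Zdel replicate 2 (1.39), R&Zflox replicate 1 (1.88) or R&Zflox replicate 2 (1.72) at 4 days, R&Zdel replicate 1 (1.81) or R&Zflox replicate 5 (1.58) at 7M, or R&Zdel replicate 4 at 3M (1.58), with adjusted p from 0.11 to 0.27. With the libraries of conflicting labels placed and no term for sex, Spry2 alone kept its call, with Egfr at -1.80 (edgeR, adjusted p = 0.33) and Hbegf at 1.51 (adjusted p = 0.27). Dusp6, by contrast, had an estimate of -0.08 ± 0.66, since its R&Zdel values were 15.7 to 33.7 CPM without damage and 19.1 and 31.6 CPM at 4 days.

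**Figure D3:**
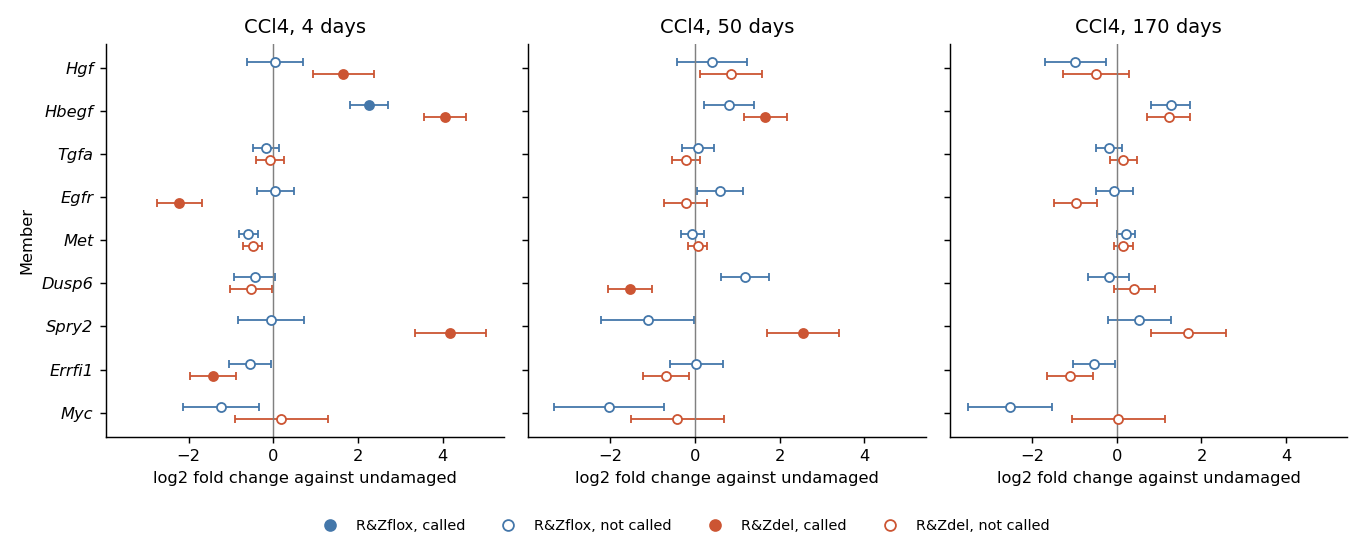
Log2 fold change of each gene tested 4, 50 and 170 days after CCl4 against undamaged livers of batch 1 of the same genotype, with bars of 1 standard error. Blue is R&Zflox and red R&Zdel. At 4 days Spry2 is at 4.18 in R&Zdel and -0.05 in R&Zflox livers, and Egfr at -2.21 and 0.05. Spry2 passed the filter on low counts only with the R&Zdel livers after CCl4.

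At 50 days the R&Zflox group was 1 library, which was assumed to vary like the other groups. Between the genotypes 0 of the 8 genes tested were called, against 5.58% of all genes. Dusp6 was 5.79 and 14.8 CPM in R&Zdel livers and 25.8 CPM in the R&Zflox liver, the highest R&Zflox value of batch 1, with a log2 fold change of -1.62 ± 0.51 (edgeR, adjusted p = 0.11). It was the only 1 of the 8 at an unadjusted p under 0.05, against 23.1% of all genes, and it was called by DESeq2 (adjusted p = 0.033) and by edgeR without R&Zdel replicate 2 (-2.20, adjusted p = 0.09998). Egfr was 202 and 206 CPM in R&Zdel livers, against 266 CPM in the R&Zflox liver (-0.61 ± 0.45). 

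Against undamaged R&Zdel livers, 3 of the 9 genes were called at 50 days, against 18% of all genes. Spry2 rose by 2.55 ± 0.86 (edgeR, adjusted p = 0.045), with 0.486 and 2.04 CPM. Because of the filter on low counts its call is, as at 4 days, no support for a rise. Hbegf rose by 1.66 ± 0.50 (adjusted p = 0.031), with 1.28 and 1.21 CPM. Dusp6 fell by 1.53 ± 0.52 (adjusted p = 0.047), and its values of 5.79 and 14.8 CPM lay below the 3 undamaged ones. All these calls rested on single libraries. Without R&Zdel replicate 1 at 50 days Hbegf was at 1.42 (adjusted p = 0.12) and Dusp6 at -1.13 (adjusted p = 0.23), and without replicate 2 Spry2 was at 1.51 (adjusted p = 0.35). Without R&Zdel replicate 1 at 7M Dusp6 was at -0.93 (adjusted p = 0.26) and Spry2 at 1.95 (adjusted p = 0.13), and without replicate 4 at 3M Spry2 was at 2.45 (adjusted p = 0.10). On total counts without TMM Dusp6 was at -1.12 (adjusted p = 0.13). Against the 3M liver alone, the month nearest to this time, Spry2 was at 4.29, Hbegf at 2.53 and Dusp6 at -0.26. That liver is female and the livers after CCl4 are male. The sex term of that fit rests on 1 female and 1 male R&Zflox liver at 7M, so these values cannot be read as an effect of the month.

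In the R&Zflox liver 0 of 9 genes were called against undamaged livers by edgeR, against 0.00793% of all genes, with 0 of 9 at an unadjusted p under 0.05, against 2.53%. Dusp6 had an estimate of 1.17 ± 0.56 there. The genotypes differed in the change of Dusp6 at 50 days by -2.70 ± 0.74 (edgeR, adjusted p = 0.090), the only 1 of 9 called, against 3.73% of all genes. This call was lost in 7 of 9 fits that left out 1 library, with values from -3.22 to -2.19. The libraries left out in these 7 were R&Zdel replicate 1 (-2.30) or replicate 2 (-3.22) at 50 days, R&Zdel replicate 1 (-2.19), R&Zflox replicate 1 (-2.50) or R&Zflox replicate 5 (-2.89) at 7M, and R&Zflox replicate 2 (-2.57) or R&Zdel replicate 4 (-2.90) at 3M. It was also lost on total counts without TMM (-2.34, edgeR adjusted p = 0.17), in males alone (-2.89, adjusted p = 0.18) and with the libraries of conflicting labels placed and no term for sex (-1.87, adjusted p = 0.86). Against the 3M livers alone, with the limit of sex given above, the value was -1.26. Cholangiocyte markers still summed to 595 and 1176 CPM in R&Zdel livers at 50 days, against 104 CPM in the R&Zflox liver, and their part was not tested.

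At 170 days 0 of 8 genes were called between the genotypes, against 0.625% of all genes, while 3 had an unadjusted p under 0.05, against 9.26%. Dusp6 was 41.9 and 22.9 CPM in R&Zdel and 5.77 and 12.3 CPM in R&Zflox livers, a log2 fold change of 1.64 ± 0.44 (edgeR, adjusted p = 0.24). Myc was 9.93 and 2.82 CPM against 1.85 and 1.998 CPM (1.52 ± 0.59, adjusted p = 0.46), and Tgfa 16.7 and 15.7 CPM against 3.95 and 11.3 CPM (0.88 ± 0.39, adjusted p = 0.53). The groups did not overlap for any of the 3. Dusp6 was called by DESeq2 (adjusted p = 0.011), and without R&Zflox replicate 2 Dusp6 (2.28, adjusted p = 0.063) and Tgfa (1.82, adjusted p = 0.011) were both called by edgeR. The direction of the Dusp6 difference was thus opposite in sign to that at 50 days, and whether the 2 times differed was not tested.

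Against undamaged livers, 0 of 9 genes were called at 170 days in either genotype by edgeR, against 0% of all genes in R&Zdel and 0.00793% in R&Zflox livers, with 1 (Hbegf, against 8.78%) and 2 genes (Hbegf and Myc, against 8%) at an unadjusted p under 0.05. Without R&Zflox replicate 2 Tgfa was called in R&Zflox livers (-1.12, adjusted p = 0.036) and for the difference between the genotypes (1.28, adjusted p = 0.098). With all libraries that difference was called for 0 genes, against 0% of all genes. Egfr was 76.3 and 134 CPM in R&Zdel and 176 and 131 CPM in R&Zflox livers, and the groups overlapped.

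In CPM on total counts, Tgfa separated the genotypes across batch 1. It ran from 12.1 to 22.9 CPM in the 9 R&Zdel and from 3.95 to 11.3 CPM in the 9 R&Zflox libraries, damaged or not. With the TMM scaling used in the fits these ranges overlapped. The scaling factor was 0.834 for the R&Zflox liver at 11.3 CPM (170 days) and 0.985 for the R&Zdel liver at 12.4 CPM (50 days). The hepatocyte markers given above were lower in R&Zdel livers without damage, and at 170 days they summed to 68227 and 69780 CPM in R&Zdel against 77975 and 119172 CPM in R&Zflox livers, and their part was not tested. Averaged over the undamaged state and the 3 times after CCl4, a comparison chosen after these values were seen, Tgfa was higher in R&Zdel livers by 0.59 ± 0.17 on the log2 scale (edgeR, adjusted p = 0.035), which is under the fold required for a call. Egfr was lower by the same comparison, with -0.84 ± 0.25 (adjusted p = 0.037), of which the difference at 4 days is a part. By the full rule 0 of 9 genes were called, against 6.57% of all genes, and by the adjusted p alone these 2 of 9, against 24.4%. In batch 2 the ranges of Tgfa overlapped, at 4.36 to 33.0 CPM in R&Zdel and 3.62 to 34.4 CPM in R&Zflox libraries. The same average over 1M and both times after PHx gave 0.55 ± 0.36 for Tgfa (adjusted p = 0.67), with 0 of 9 genes called, against 0.908% of all genes. Dusp6 was at 0.89 ± 0.30 there (adjusted p = 0.19) and was called without R&Zflox replicate 2 at 1M (1.00, adjusted p = 0.093).

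After PHx the study's own call rule was used, an unadjusted p under 0.05 and a change of more than 1 log2 unit. At 7 days Tgfa was 15.1, 24.4 and 21.0 CPM in R&Zdel and 5.27, 7.33 and 7.03 CPM in R&Zflox livers. The groups did not overlap, and Tgfa was higher in R&Zdel livers by 1.53 ± 0.65 (edgeR, adjusted p = 0.82), 1 of 9 genes called, against 3.99% of all genes. At 21 days Dusp6 was 22.4, 21.9 and 31.4 CPM in R&Zdel and 13.2, 6.63 and 15.02 CPM in R&Zflox livers, again without overlap. It was higher by 1.26 ± 0.55 (edgeR, adjusted p = 0.56), 1 of 9 genes called, against 6.56% of all genes. With the adjusted rule 0 genes were called at either time by edgeR, against 0.274% and 0.329% of all genes. With the replicate number as a block neither call remained, at 1.504 for Tgfa and 1.18 for Dusp6, both with an edgeR adjusted p of 1, although the numbers did not pair the libraries.

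Single libraries mattered here too. Tgfa at 7 days lost its call without R&Zdel replicate 2 (1.34) and without R&Zflox replicate 1 (1.40). Without R&Zdel replicate 2 Dusp6 was called by edgeR instead (1.25, adjusted p = 1), and without R&Zflox replicate 2 Myc was called as well, with Myc at 0 in both R&Zflox libraries left. Dusp6 at 21 days lost its call without R&Zdel replicate 3 (0.89), the only female of that comparison, and without R&Zflox replicate 2 (0.98). Egfr did not differ by the test at either time, with 465, 358 and 327 CPM in R&Zdel and 304, 455 and 148 CPM in R&Zflox livers at 7 days (0.27 ± 0.43). Hepatocyte markers moved with the genotype in these livers. Their sums were 67818 to 89466 CPM in R&Zdel and 122483 to 149238 CPM in R&Zflox livers at 7 days, and 64892 to 82897 against 111371 to 129148 CPM at 1M, and their part in the values of Tgfa and Dusp6 was not tested.

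Met, the receptor of HGF, was 28.7, 52.6 and 55.5 CPM in R&Zdel and 88.5, 61.0 and 56.2 CPM in R&Zflox livers at 7 days. The groups did not overlap, and the log2 fold change was -0.68 ± 0.42 (edgeR, adjusted p = 0.90). Against undamaged livers at 1M, 0 of 9 genes were called after PHx by edgeR in R&Zflox (0.0235% of all genes at 7 days, 0% at 21 days) or in R&Zdel livers (0.0157% and 0%). At an unadjusted p under 0.05, which 5.79% of all genes passed in R&Zflox livers at 7 days and 6.93% at 21 days, there were Tgfa at 7 days (-1.71 ± 0.65, adjusted p = 0.72) and Dusp6 at 21 days (-1.30 ± 0.52, adjusted p = 0.65), and 0 of the 9 genes in R&Zdel livers, against 4.99% and 4.91% of all genes. The same R&Zflox libraries enter these values and the genotype differences above. The genotypes did not differ by the test in their change after PHx, with 0 of 9 genes called at either time, against 0% of all genes, and with Egfr alone, against 4.75% of all genes, at an unadjusted p under 0.05 at 7 days (1.23 ± 0.59, adjusted p = 1).

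**Figure D4:**
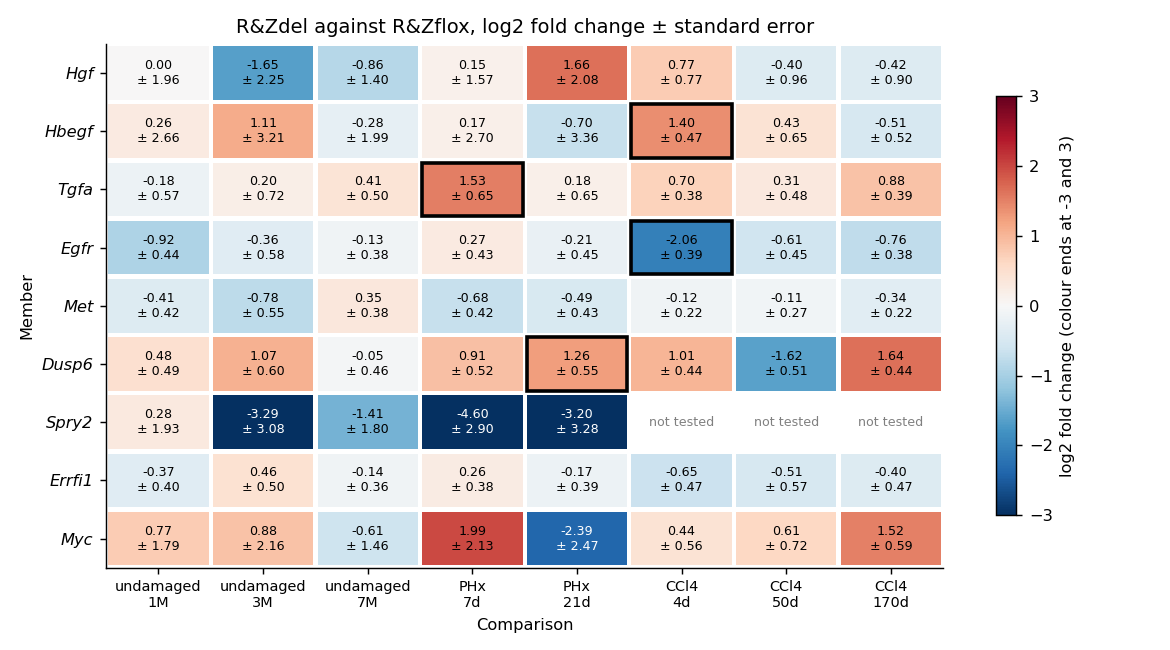
Log2 fold change of R&Zdel against R&Zflox with its standard error for 9 of the genes (rows, without Areg, which never passed the filter on low counts) in each comparison (columns), coloured from blue (lower in R&Zdel) to red (higher). Black frames mark calls, which after PHx use the unadjusted rule; Egfr and Hbegf are framed 4 days after CCl4, Tgfa 7 days and Dusp6 21 days after PHx.

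The rest of the pathway was followed in lists of 76 other genes: further ERBB ligands and receptors, HGF-processing enzymes, ligand shedding, the RAS-ERK cascade, other feedback inhibitors, ERK response genes and the MYC network. Without damage 0 of the 66 tested were called between the genotypes at 1M, 3M or 7M by edgeR, against 0.436%, 0.226% and 0.451% of all genes. At 4 days after CCl4, 12 of 62 were higher and 2 lower in R&Zdel livers, against 10.3% higher and 4.95% lower of all genes. The median log2 fold change was 0.40 over the lists and 0.06 over all genes. By list these were 3 higher and 1 lower of 5 ERBB ligands and receptors, 2 higher of 7 in HGF processing, 1 higher of 4 in shedding, 0 of 14 in the RAS-ERK cascade, 1 higher of 10 feedback inhibitors, 4 higher of 10 ERK response genes, and 1 higher and 1 lower of 12 in the MYC network. The higher genes include Spint1, St14, Erbb2 and Mycn, which passed the filter on low counts only through the R&Zdel livers after CCl4. The counts of higher genes and the median over the lists are thus no support for a rise of the pathway.

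The largest estimates were those of HGF-processing genes. Spint1, an inhibitor of HGF-activating proteases, was 30.5 and 54.9 CPM in R&Zdel and 0.412 and 0.592 CPM in R&Zflox livers and rose by 5.87 ± 1.18 (edgeR, adjusted p = 0.013). St14, the protease matriptase, rose by 5.54 ± 0.87 (adjusted p = 0.0051), with 22.8 and 37.9 CPM against 0.412 and 0.487 CPM. Both encode epithelial surface proteins. The cholangiocyte markers given above were higher in the same livers, and their part in these values was not tested. Among the ERBB genes Nrg1, a ligand of ERBB3 and ERBB4, rose by 2.94 ± 0.40 (adjusted p = 0.0031), with 16.8 and 21.1 CPM against 1.74 and 1.75 CPM. Erbb2, the receptor without a ligand of its own, rose by 2.82 ± 0.72 (adjusted p = 0.029), to 6.51 and 11.1 CPM from 0.835 and 0.893 CPM. Spry1, a relative of Spry2, rose by 2.54 ± 0.59 (adjusted p = 0.021). Spry1 was 9.46 and 14.8 CPM in R&Zdel livers against 1.10 and 1.81 CPM, the same order as Spry2. Mycn, a relative of Myc, was 1.55 and 3.38 CPM against 0.172 and 0.278 CPM, and it passed the filter on low counts only through the 6 R&Zdel libraries after CCl4. Spint1, St14 and Erbb2 likewise passed it only through these libraries. Their R&Zflox values after CCl4 exceeded 1 CPM only at 170 days, with highest values of 8.29, 1.36 and 2.17 CPM. The calls of Mycn, Spint1, St14 and Erbb2 are thus no support for a rise.

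Against undamaged R&Zdel livers, 23 of the 66 listed genes rose and 6 fell at 4 days, and 14 rose and 2 fell at 50 days. Of all genes tested, 21.4% rose and 9.95% fell at 4 days, and 12.7% rose and 5.31% fell at 50 days. In R&Zflox livers 2 rose and 1 fell at 4 days, against 3.39% and 1.98% of all genes. At 50 and at 170 days 0 were called there by edgeR, against 0.00793% of all genes at each time. Those that rose in R&Zdel livers at 4 days included St14, Spint1, Nrg1 (4.31 ± 0.42, edgeR, adjusted p = 5.2e-05) and Spry1 (3.65 ± 0.53, adjusted p = 0.00027). Etv4, an ETS factor that ERK signals induce, was 2.88 and 4.30 CPM there and at most 0.171 CPM in undamaged livers of batch 1, and Plat, a plasminogen activator, was 4.46 and 24.3 CPM there and at most 0.368 CPM in undamaged livers. Without the R&Zdel livers after CCl4 neither would have passed the filter on low counts, so that their calls are no support for a rise. At 50 days St14 (2.82), Spint1 (2.64) and Spry1 (2.64) were among those that rose. In R&Zflox livers at 4 days Ccnd1, which encodes cyclin D1, rose by 1.49 ± 0.36 (adjusted p = 0.033) and Nrg1 by 1.46 ± 0.40 (adjusted p = 0.056), whereas Spry4 fell by 1.77 ± 0.45 (adjusted p = 0.041).

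The genotypes differed in their change at 4 days for 17 listed genes upward and 6 downward of 66, against 12.7% upward and 13% downward of all genes. Spint1, St14, Spry1, Egr1, Fos and Nrg1 had the largest differences, from 2.86 for Nrg1 to 4.56 for Spint1. At 50 days there were 1 upward (Rhbdf1, which helps shed EGFR ligands) and 3 downward, among them Nop56 and Odc1, against 1.03% upward and 2.7% downward of all genes. Between the genotypes at that time Rhbdf1 rose by 1.84 ± 0.35 (edgeR, adjusted p = 0.050) while Spry4 (-2.76 ± 0.64, adjusted p = 0.067) and Nop56 (-1.09 ± 0.24, adjusted p = 0.060) fell. These rest on the single R&Zflox liver. At 170 days Nrg1 alone of the listed genes was called between the genotypes, against 0.625% of all genes. It was higher by 2.48 ± 0.48 (edgeR, adjusted p = 0.090), with 1.24 and 2.14 CPM in R&Zdel and 0.175 and 0.355 CPM in R&Zflox livers.

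After PHx 1 of 65 listed genes was higher and 4 lower at 7 days by the unadjusted rule, and 0 higher and 2 lower at 21 days, against 3.99% and 6.56% of all genes called in either direction. Egr1, an early response gene of ERK signals, was among the lower at both times. At 21 days it was 2.62 to 5.54 CPM in R&Zdel and 24.3 to 42.6 CPM in R&Zflox livers and fell by 3.18 ± 0.73 (edgeR, adjusted p = 0.082), and at 7 days its log2 fold change was -1.81 ± 0.68 (adjusted p = 0.73). Dusp6, another gene that ERK signals induce, had the higher values in R&Zdel livers at 21 days. Also called by the unadjusted rule at 7 days were Spred2 and Junb, both lower in R&Zdel livers, and Mycn, which was 0.712 to 6.907 CPM in R&Zdel and 0 to 0.060 CPM in R&Zflox livers. Spred3, called as lower at 21 days, was at 0 in the 3 R&Zdel livers and at 0 by its median in the R&Zflox livers. Their adjusted p ran from 0.56 to 0.82.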

How the data were processed

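The count tables were deposited by the authors, who trimmed 50-base single reads from Smart-Seq2 libraries of whole liver, aligned them to mm10 with STAR 2.5.0a and counted them per gene with featureCounts (1.5.0-p3 in batch 1 and 1.5.0-p1 in batch 2, from the submitters' processing notes). No strand was used, so reads from overlapping and antisense genes cannot be told apart. The deposited values are raw counts. Batch 1 lists 49997 symbols and batch 2 49568, and the 34490 in both hold 95.3% to 98.8% of the counts of each library. CPM was computed on these.

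The labels give 55 samples. Counts of 53 libraries were used, of which 48 had a group (25 R&Zflox and 23 R&Zdel, 18 in batch 1 and 30 in batch 2). The titles and characteristics of 7 libraries conflict. Of these, 5 stayed out of every comparison, and 2 (R&Zdel replicate 4 at 3M and R&Zflox replicate 5 at 7M, the only females of batch 1 with a group) were kept in the groups their characteristics give. A further 2 samples were not analysed here. Libraries of a group differed by more than counting noise in every pair (chi-square per degree of freedom from 47.4 to 490.5). The labels do not name the mouse of each library, so p-values measure the spread between libraries.

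Genes were tested with edgeR 4.0.16 (R 4.3.3, quasi-likelihood test, TMM, Benjamini-Hochberg over all genes tested): 12848 genes in undamaged livers, with batch and sex as terms, 11358 after CCl4, 12773 for 1M and PHx, with sex as a term, 12608 in batch 1 and 11292 for sex at 1M. Standard errors are the log2 fold change divided by the square root of F. Each fit was tested on simulated data with the same spread for every gene and changes in well-counted genes alone. This cannot show how the fits perform at the spread and the low counts of these libraries. Replicate numbers did not pair the libraries. Alternatives were RLE size factors, no TMM, no filter on low counts, DESeq2 1.42.0, edgeR's likelihood ratio test, other call rules, males alone, single batches, the matching month, the conflicting libraries placed, a replicate block, and fits without each single library. The fits without TMM, those with the conflicting libraries and no term for sex, the crossed block, the comparisons by sex and those averaged over states were chosen after seeing the data.

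The 10 genes and all lists were chosen with earlier results of these data known. Of the pathway lists, at most 6 called genes per comparison were named, by the size of their change. A few of these genes are not reported here.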

Additional observations from a re-analysis of the deposited data

Results flagged for a closer look

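Libraries were flagged by a cut-off on the gap to the next value, which about 1 in 20 groups of normally distributed values pass. The CPM values here include many at 0, and both batches were pooled at 3M and 7M. How many flags chance gives for such values was not tested. Of 47 groups of values with 4 to 10 libraries, 12 held 1 library far from the others by this cut-off. In R&Zdel livers these were Hbegf at 5.13 CPM in replicate 4 at 1M, where the next value was 0.302, and at 4.45 CPM in replicate 4 at 7M, Spry2 at 1.91 CPM in that same library, Hgf at 3.72 CPM in replicate 3 at 7M, Met at 95.3 CPM in replicate 5 at 7M, where the next value was 38.9, and Areg at 0.135 CPM in replicate 1 at 7M. In R&Zflox livers they were Hgf at 15.3 CPM in replicate 2 at 1M, at 9.10 CPM in replicate 3 of batch 2 at 3M and at 6.88 CPM in replicate 4 at 7M, Spry2 at 4.18 CPM in replicate 3 of batch 2 at 3M, Myc at 27.1 CPM in replicate 2 at 3M, and Areg at 0.043 CPM in replicate 1 at 7M.

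The change after CCl4 differed between the genotypes by the test of that difference for Spry2 (4.23), Egfr (-2.26) and Hbegf (1.80) at 4 days and for Dusp6 (-2.70) at 50 days, all on the log2 scale. The call of Spry2 is no support for a difference, since it passed the filter on low counts only with the R&Zdel livers after CCl4.

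Among the 5 libraries whose labels conflict, values above the highest R&Zflox value of batch 1 were seen for Tgfa in 3 (16.9, 13.7 and 17.4 CPM, against 11.3), for Hgf in 2 (2.15 and 1.82 CPM, against 1.71), for Spry2 in 2 (1.49 and 1.602 CPM, against 1.35), for Dusp6 in 1 (35.0 CPM, against 25.8) and for Areg in 1 (0.045 CPM, against 0.044).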

How the results depend on the processing

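Depth limited Areg, which no fit with the filter on low counts tested, and Hbegf, Spry2, Myc and Hgf in batch 2. No direction of a called gene reversed. RLE size factors moved no count of genes called between genotypes or after damage by over 1.5 times. The counts of the 10 genes called moved as follows. With no filter on low counts they became 4, 1 and 2 between the genotypes at 4, 50 and 170 days after CCl4, 0 at 7 and 0 at 21 days after PHx, 2, 2 and 1 for R&Zflox at 4, 50 and 170 days after CCl4 against undamaged, 1 for R&Zdel at 170 days, and 5, 3 and 1 for the difference in change at 4, 50 and 170 days. With DESeq2 and with edgeR's likelihood ratio test alike they became 1 and 1 between the genotypes at 50 and 170 days and 2 for the difference in change at 50 days. Without TMM they became 4 between the genotypes at 4 days and 0 for the difference in change at 50 days. With the conflicting libraries placed they became 0 between the genotypes at 4 days. With these placed and no term for sex they became 0 for R&Zflox and 2 for R&Zdel at 4 days, 0 for R&Zdel at 50 days, and 1 and 0 for the difference in change at 4 and 50 days. With an adjusted p, with or without a fold minimum, they became 0 at 7 and 0 at 21 days after PHx. In males alone they became 0 at 21 days after PHx and 0 for the difference in change at 50 days. Against the matching month alone the counts at 50 days cannot be read, since the only R&Zdel liver of batch 1 at 3M is female. With the replicate block they became 0 at 7 and 0 at 21 days after PHx, and the block moved none of the other 10 counts it could be fitted for. With crossed numbers at 170 days, where the pair's correlation was -0.52, 1 gene was called. Block fits were not run at 3M and 50 days, where too few numbers are shared, or for pooled undamaged livers.

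With each library left out in turn the counts ran from 1 to 2, 0 to 1 and 0 to 2 between the genotypes at 4, 50 and 170 days after CCl4, from 0 to 2 and 0 to 1 at 7 and 21 days after PHx, from 0 to 1 for R&Zflox at 170 days, from 3 to 5 and 1 to 3 for R&Zdel at 4 and 50 days, and from 1 to 3, 0 to 2 and 0 to 1 for the difference in change at 4, 50 and 170 days. They stayed at 0 for undamaged livers and after PHx against 1M. Leaving out the only R&Zflox library at 50 days gives no value. The causes of these moves were not tested.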

Other observations

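In the 5 libraries whose titles and characteristics conflict, Egfr ran from 41.1 to 70.8 CPM, Tgfa from 7.53 to 17.4 CPM and Dusp6 from 14.3 to 35.0 CPM. In the 18 grouped libraries of the same batch Egfr ran from 42.0 to 277 CPM, with 2 below 70.8 CPM, R&Zdel replicate 2 at 4 days after CCl4 (43.2 CPM) and R&Zflox replicate 5 at 7M (42.0 CPM).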
